A study of Mus musculus with 4 samples.

Results

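A set of 10 genes that sense, carry or activate short-chain fatty acids were followed in crypts of the mouse small intestine, the pits of the gut lining that hold its stem cells. Members were taken by symbol from both of the authors' deposited tables and are 10 of the 27425 genes listed in either table. The receptors are Ffar2, Ffar3 and Hcar2, the transporters are Slc5a8 and Slc16a3, the acyl-CoA synthetases are Acss1, Acss2 and Acss3, and the carboxylase subunits are Pcca and Pccb. All 10 were listed in both tables, and 9 of them carried an adjusted p-value. Hcar2 did not, because its counts were too few.

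The mice were male C57BL/6J animals aged 9 weeks, a strain and sex that all groups share. One group was fed and given no tetracycline, and another was fasted for 24 hours and given none. The other groups were fed, or fasted for 24 hours, after 21 days of tetracycline, an antibiotic meant to remove what the design text calls AKK. The study asked how that depletion bears on expression in the fed and the fasted state. The labels give 4 samples, 1 in each group, and the deposited tables rest on 2 libraries on each side of each comparison. Nothing says whether these came from separate animals, so the p-values measure the spread between libraries, which may be technical. Crypts were detached in a chelating buffer and taken to single cells with trypsin, so other cells of the mucosa can be carried along.

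Short-chain fatty acids, chiefly acetate, propionate and butyrate, are made by gut bacteria that ferment fibre. Epithelial cells take them up through proton- and sodium-coupled monocarboxylate carriers, and enteroendocrine and immune cells sense them through G-protein-coupled receptors on the cell surface. Inside the cell, acetate and propionate are joined to coenzyme A, and propionyl-CoA enters the citric acid cycle through a biotin-dependent carboxylase. These acids are scarcer in the small intestine than in the colon. Slc5a8 is best known from the ileum, the distal small intestine, and from the colon, and the bile acid carriers from the ileum.

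No member passed the authors' adjusted p of 0.05 in either fasting comparison, and none differed between the comparisons. Of the 9 tested members, 0 were called without tetracycline, where 2.27% of all 18100 tested genes were called in the authors' deposited table (DESeq2, Benjamini-Hochberg adjusted). With tetracycline 0 of 9 were called, beside 0.600% of all 17993 tested genes. With 9 genes, such shares leave little room for a call in any set of this size. At an unadjusted p under 0.05 there were 0 members without and 1 with tetracycline, Slc5a8. The median log2 change of the tested members was 0.01 without tetracycline, as it was over all tested genes. With tetracycline it was 0.19, beside -0.02 over all tested genes. The signs of the members' changes were 5 positive and 4 negative without and 9 positive with tetracycline, although 3 of those 9 were under 0.1.

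Among the 9 tested members the transporters had the largest standard errors in the first table and differed most between the fasted libraries in both, and the receptor pair Ffar2 and Ffar3 had changes of opposite sign without tetracycline. The 250 bases before a RefSeq start site of each of these 4 genes are therefore shown (GRCm38.p6). They run 5′ to 3′ on the gene's own strand, with each CG pair in capitals. They lie at chr7:30823776-30824025 on the minus strand for Ffar2 (the first of 4 listed starts), chr7:30856179-30856428 on the minus strand for Ffar3, chr11:120948817-120949066 on the plus strand for Slc16a3 and chr10:88885742-88885991 on the plus strand for Slc5a8.
Ffar2: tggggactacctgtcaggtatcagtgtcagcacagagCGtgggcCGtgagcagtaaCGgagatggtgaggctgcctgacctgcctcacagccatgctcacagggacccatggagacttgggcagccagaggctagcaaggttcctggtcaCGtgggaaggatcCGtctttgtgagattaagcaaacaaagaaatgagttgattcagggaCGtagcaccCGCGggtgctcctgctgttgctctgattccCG
Ffar3: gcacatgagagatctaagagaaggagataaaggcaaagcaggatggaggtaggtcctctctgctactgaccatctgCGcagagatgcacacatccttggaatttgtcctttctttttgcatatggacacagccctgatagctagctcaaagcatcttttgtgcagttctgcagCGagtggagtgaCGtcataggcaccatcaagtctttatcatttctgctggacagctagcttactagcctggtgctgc
Slc16a3: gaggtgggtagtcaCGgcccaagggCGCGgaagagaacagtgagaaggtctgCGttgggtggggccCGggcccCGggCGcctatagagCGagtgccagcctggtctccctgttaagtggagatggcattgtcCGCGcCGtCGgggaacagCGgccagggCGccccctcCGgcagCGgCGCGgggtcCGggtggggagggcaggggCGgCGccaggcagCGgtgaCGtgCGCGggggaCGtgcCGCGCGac
Slc5a8: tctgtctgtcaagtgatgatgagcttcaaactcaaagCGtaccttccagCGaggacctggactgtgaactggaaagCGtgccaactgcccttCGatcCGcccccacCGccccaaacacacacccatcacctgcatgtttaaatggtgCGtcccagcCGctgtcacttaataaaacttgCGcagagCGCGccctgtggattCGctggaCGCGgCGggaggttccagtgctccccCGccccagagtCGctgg
The RefSeq start used for Slc16a3 lies inside the gene span given below, so its window is not upstream of that span. The Slc16a3 window held 29 CG pairs, more than 93.2% of the 32851 mouse promoter windows of the same length. The Slc5a8 window held 17, more than 76.5% of them, while the Ffar2 window shown held 9 and the Ffar3 window 3. The windows before Ffar2 starts 2, 3 and 4 held 3 each. The median window held 6. The letters AGGTCA, a half-site that many nuclear receptors bind, were searched on both strands and lay in 14.0% of all windows. They were found in the Ffar2 window shown and not in those of Ffar3, Slc16a3 and Slc5a8. The letters also lay in the overlapping windows of Ffar2 starts 3 and 4 but not before start 2. Among the other members with a RefSeq window (8 of the 10 members matched), they were found before the first of 2 listed starts of Pcca and not before the second, which is the one next to the gene start given below, nor before Acss1, Acss2 or Pccb. These are letter matches only, and binding or methylation was not measured.

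**Figure D1:**
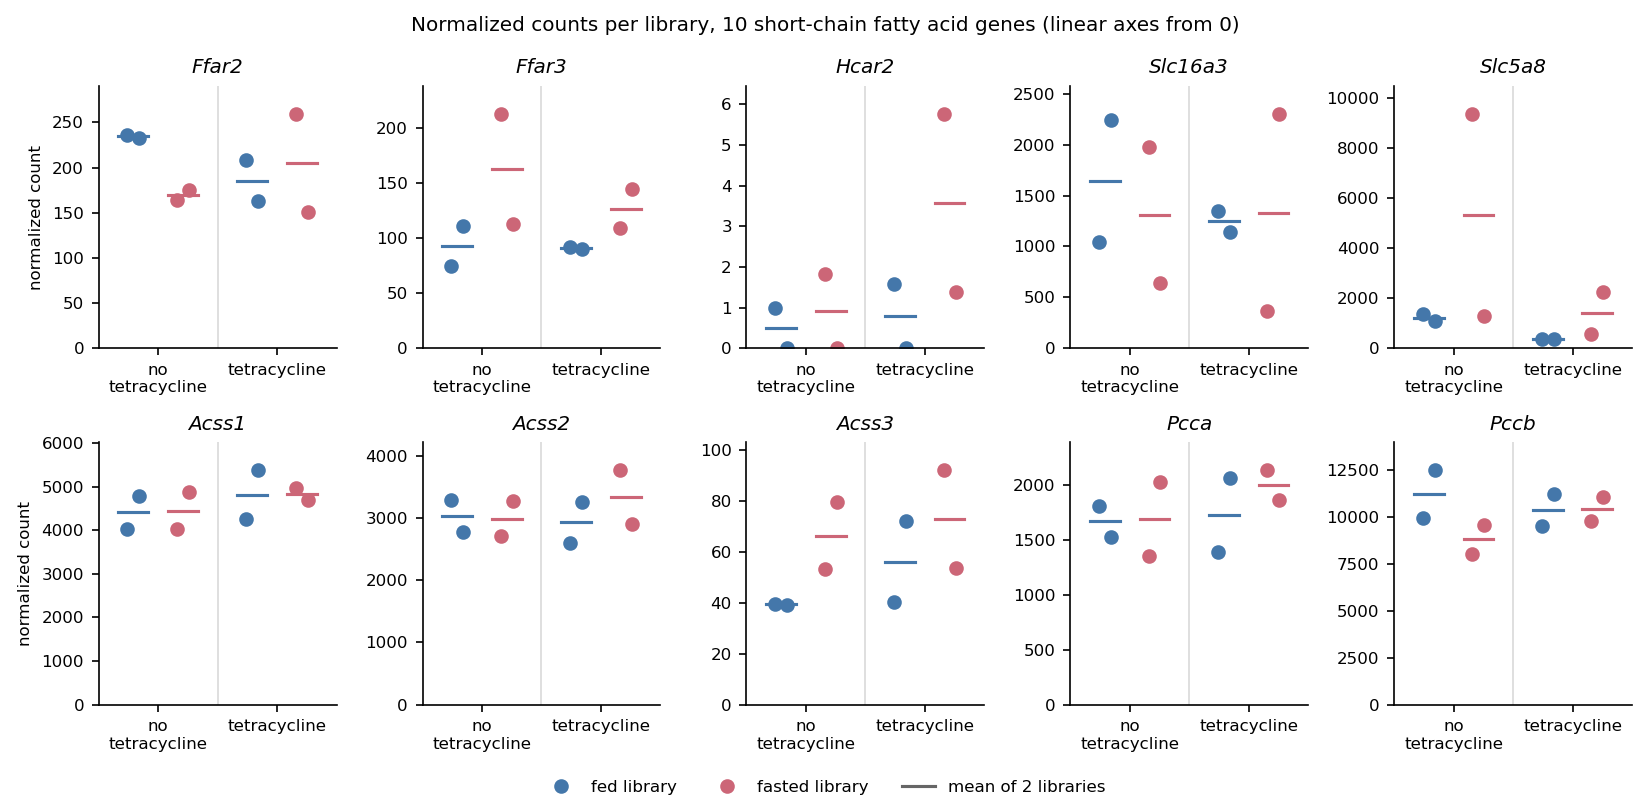
Normalized counts of the 10 members in each of the 8 libraries (points, fed in blue and fasted in red; horizontal lines are means of 2 libraries), on linear axes that start at 0 and differ between genes. Slc5a8 has 1 fasted library at 9372 without tetracycline and Slc16a3 is widely spread, while the Acss1, Acss2, Pcca and Pccb points lie close together.

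Ffar2 encodes the receptor FFA2 (GPR43), which responds to acetate and propionate on enteroendocrine and immune cells. It spans chr7:30818348-30823775 on the minus strand (GRCm38, GENCODE M21 annotation). Without tetracycline Ffar2 had normalized counts of 164.2 and 175.3 in the 2 fasted libraries and 236.2 and 233.1 in the 2 fed ones. Both fasted libraries thus lay below both fed libraries. The deposited log2 change was -0.47 (SE 0.34), a fold of 0.723 with a 95% interval of 0.453 to 1.16, and its adjusted p was 0.723. With tetracycline the fasted libraries held 259.2 and 151.3 normalized counts of Ffar2 and the fed ones 207.9 and 162.9. These overlapped, and the log2 change was 0.15 (SE 0.51, adjusted p 1.0). A fold of 2.18 without and 3.61 with tetracycline, or its inverse, would have been needed for a call at these standard errors. The difference between the changes, with minus without tetracycline, was 0.62 (SE 0.62) with an adjusted p of 1.0 in a Wald test. It was the widest of the 9 tested members, for none of which the difference was called, beside 0.0228% of 17571 genes. At an unadjusted p under 0.05 there were 0 members, beside 185 of all genes in that test.

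Ffar3 encodes FFA3 (GPR41), the receptor that prefers propionate and butyrate. It lies 30.6 kb from Ffar2 on the same strand, at chr7:30854330-30856178. Without tetracycline Ffar3 had 212.8 and 112.9 normalized counts in the fasted and 74.43 and 111.5 in the fed libraries. The lower fasted library exceeded the higher fed one by little more than 1 normalized count. The log2 change was 0.81 (SE 0.47, adjusted p 0.568) and fell to 0.28 when fasted library 1 was left out. With tetracycline the fasted libraries held 109.4 and 144.5 and the fed ones 92.14 and 90.60. The fasted libraries again lay above the fed ones, with a log2 change of 0.47 (SE 0.51, adjusted p 1.0). Ffar3 thus had a positive value in both comparisons without passing the test in either, and its 95% interval without tetracycline ran from -0.11 to 1.73.

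Hcar2 encodes the receptor GPR109A, which binds niacin, butyrate and the ketone body beta-hydroxybutyrate and is known from colon epithelium and myeloid cells. It lies at chr5:123863570-123865499 on the minus strand. Only 3 Hcar2 counts were recovered over the 4 libraries without tetracycline, 2 fasted and 1 fed, so both sides were at or under the floor of 3 counts and no fold is given. With tetracycline there were 8 fasted counts (7 and 1) and 2 fed counts (2 and 0). Corrected for library size, that is a ratio of 4.52 with an exact counting interval of 0.903 to 43.7, which covers counting error only. Hcar2 was near the limit of detection in these crypts, and a change was not detectable at this depth.

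Receptor levels in bulk RNA depend on the cells present, and fewer cells of a type cannot be told apart from less RNA per cell. The sum of 8 of 9 enteroendocrine markers was 18228 and 21492 in the fasted and 20499 and 27468 in the fed libraries without tetracycline, and 1 of the 9, Cck, was called lower. With tetracycline the sums were 19876 and 22186 fasted against 15782 and 15844 fed, with 0 of 9 called. At an unadjusted p under 0.05 there were 2, Chga and Gcg, both higher. Chga alone gave 10260 and 10759 of the fasted and 6383 and 5906 of the fed sums with tetracycline. Of the 9 changes, 2 were positive and 7 negative without and 5 positive and 4 negative with tetracycline. Neutrophil and myeloid markers (9 genes) summed to 1087 and 1503 fasted against 1955 and 3191 fed without tetracycline, and 1 of the 7 tested, the macrophage lysozyme Lyz2, was called lower. With tetracycline they summed to 1890 and 562.7 fasted against 5194 and 2358 fed, with 0 of 7 called and 3 at an unadjusted p under 0.05, all lower. The neutrophil markers S100a8 and S100a9 had deposited means of 5.09 and 2.80 without and 1.73 and 3.08 with tetracycline. All 4 B-lymphocyte markers were called lower without tetracycline, with sums of 392.6 and 958.3 fasted against 2056 and 3978 fed. With tetracycline the B-lymphocyte sums were 1625 and 104.6 fasted against 4764 and 1171 fed, with 0 of 4 called and 1 at an unadjusted p under 0.05. The part of these cells in the Ffar2 and Ffar3 values was not tested. The 4 epithelial markers were present, with Epcam at a deposited mean of 83703 and 68783, and 0 of the 4 were called in either table, with 1 (Krt8, lower) and 0 at an unadjusted p under 0.05.

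Slc5a8 encodes SMCT1, the sodium-coupled carrier that takes up short-chain fatty acids, lactate and ketone bodies from the lumen. It spans chr10:88885992-88929515 on the plus strand. Slc5a8 had the largest deposited change of the 9 tested members in both tables. Without tetracycline its fasted libraries held 9372 and 1292 normalized counts and its fed libraries 1377 and 1077. One fasted library was thus 7.26 times the other, and the lower one lay between the 2 fed libraries. The log2 change was 2.12 (SE 1.21), a fold of 4.34 with a 95% interval of 0.834 to 22.6, and the adjusted p was 0.561. Without fasted library 1 the log2 value was 0.07.

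With tetracycline the fasted libraries held 571.0 and 2258 normalized counts of Slc5a8 and the fed libraries 351.2 and 382.9. Here the groups did not overlap, although the fasted libraries differed 3.95-fold between themselves. The log2 change was 1.95 (SE 0.65), a fold of 3.85 with a 95% interval of 1.58 to 9.37. Its unadjusted p was 0.00295 and its adjusted p 0.253 (DESeq2, as deposited), so Slc5a8 did not pass the test. Leaving out each library in turn gave log2 values from 0.64 to 2.62. A fold of 15.5 without and 5.16 with tetracycline would have been needed for a call. The standard error of Slc5a8 was larger than that of 99.9% of genes with a like mean (within 1.5-fold) without and of 93.4% with tetracycline. The difference between the 2 changes was -0.17 (SE 1.38, adjusted p 1.0), with an interval from -2.88 to 2.53.

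Slc16a3 encodes MCT4, a proton-coupled carrier best known for lactate export. It spans chr11:120948480-120960868 on the plus strand. Without tetracycline Slc16a3 had 1977 and 644.2 normalized counts in the fasted and 1042 and 2238 in the fed libraries. With tetracycline it had 362.0 and 2300 in the fasted and 1348 and 1143 in the fed libraries. The groups overlapped in both tables, and with tetracycline the 2 fasted libraries were the lowest and the highest of the 4. The log2 changes were -0.32 (SE 0.90, adjusted p 0.967) and 0.09 (SE 0.76, adjusted p 1.0). Leaving out 1 library moved the value to between -1.35 and 0.33 without tetracycline and to between -1.78 and 0.88 with it, so its sign rested on which library was used. Its standard error exceeded that of 99.6% and 96.5% of genes with a like mean.

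The same fasted library was the higher one for both transporters in each table. On the log2 scale with a pseudocount of 1, fasted library 1 differed from fasted library 2 by 2.86 for Slc5a8 and 1.62 for Slc16a3 without tetracycline. With tetracycline the differences were -1.98 and -2.66. The median absolute difference over 12567 genes was 0.31 in the first pair and 0.51 in the second. Libraries are numbered by size factor within a side, so a change of sign between tables carries no meaning.

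Genes of the distal small intestine moved with those libraries. This marker list (Fabp6, Slc10a2, Slc51a, Slc51b and Cubn, which serve bile acid and vitamin B12 uptake) was added after the library values had been seen. Its 4 members with recovered counts were all higher in fasted library 1 without tetracycline, by 1.77 to 5.31 times. All 5 were higher in fasted library 2 with tetracycline, by 2.86 to 7.49 times. Cubn, the vitamin B12 receptor cubilin, had 19111 and 3596 normalized counts in the fasted and 5692 and 5638 in the fed libraries without tetracycline. With tetracycline it had 1573 and 11159 fasted against 3348 and 3025 fed. The summed level of Fabp6, Slc10a2, Slc51b and Cubn was 29376 and 6605 fasted against 27103 and 30159 fed without, and 3478 and 21688 fasted against 20943 and 14710 fed with tetracycline. Fabp6, the ileal bile acid binding protein, was itself called lower on fasting without tetracycline, with a log2 change of -5.13 (SE 0.34, adjusted p 1.46e-48). With tetracycline the value for Fabp6 was -2.21 (SE 0.75, adjusted p 0.268). Marker sums of other cell types also differed within the fasted pairs, in both directions. With tetracycline, fasted libraries 1 and 2 held 9385 and 3049 for 3 stem cell markers, 18214 and 4645 for the Paneth cell gene Mmp7, 13467 and 2266 for 3 T-lymphocyte markers and 775.9 and 240.8 for 4 stromal markers, all higher in the library where the transporters were lower. Without tetracycline the same sums were 5269 and 6860 for stem cell, 11508 and 13541 for Paneth, 3892 and 8016 for T-lymphocyte and 283.5 and 544.2 for stromal markers, again higher in the library where the transporters were lower. Tuft cell markers (3 genes) were higher in fasted library 1 in both tables, at 6263 and 5030 without and 4366 and 3564 with tetracycline. The enteroendocrine sums given above were higher in fasted library 2 in both. A list of 5 proximal small-intestinal genes was also added after the values had been seen. For the 3 with recovered counts (Onecut2, Cybrd1 and Slc40a1) the sums were 8032 and 9543 without and 6872 and 10694 with tetracycline. Fasted library 2 was thus higher both times. The proximal sum ran against the distal one without tetracycline and with it under tetracycline. Within the sum, Cybrd1 went the other way without tetracycline, with 505.4 and 459.2. Slc40a1 was itself called lower on fasting in both tables (DESeq2, adjusted p 0.0113 without and 0.0201 with tetracycline). The part of these libraries' make-up in the Slc5a8 and Slc16a3 values was not tested.

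**Figure D2:**
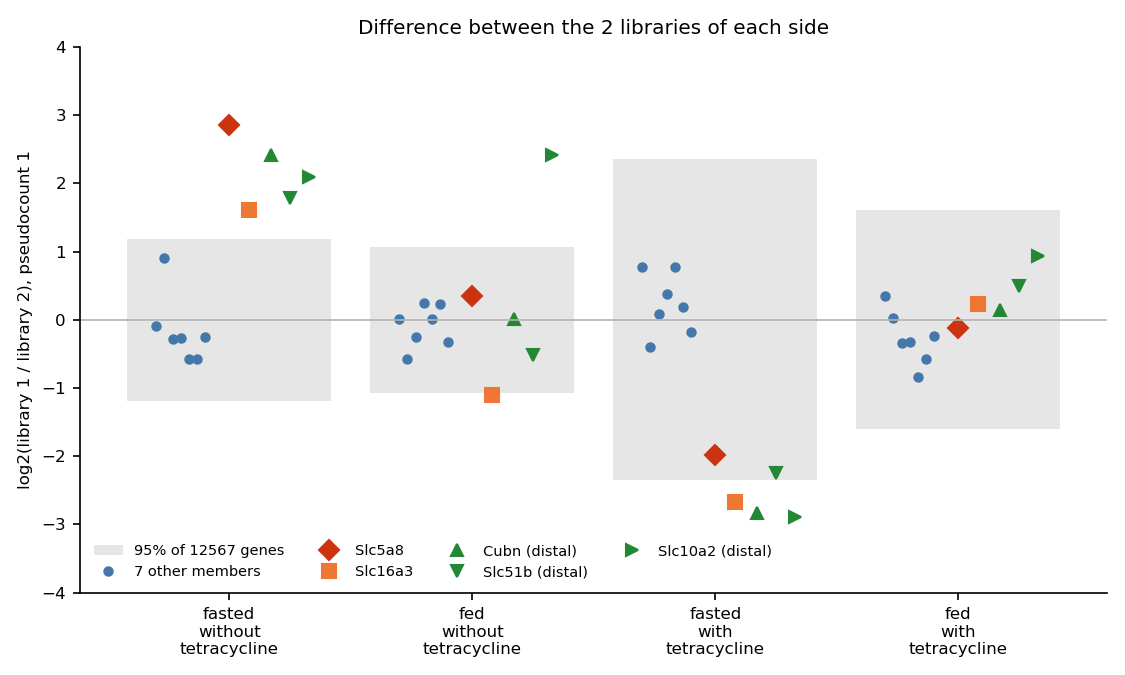
Log2 ratio of library 1 to library 2 (vertical axis, pseudocount 1) within each of the 4 pairs of libraries, for Slc5a8, Slc16a3, the 7 other members with a mean above the floor, and 3 distal small-intestinal genes; grey boxes hold 95% of 12567 genes. Slc5a8 stands at 2.86 and -1.98 in the 2 fasted pairs, on the same side as Slc16a3, Cubn, Slc51b and Slc10a2, and near 0 in the 2 fed pairs.

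Acss1, Acss2 and Acss3 join acetate or propionate to coenzyme A, Acss1 and Acss3 in mitochondria and Acss2 in the cytosol and nucleus. Acss1, at chr2:150618105-150668500 on the minus strand, had 4018 and 4874 normalized counts fasted and 4034 and 4782 fed without tetracycline. With tetracycline it had 4974 and 4701 fasted and 4263 and 5371 fed. The Acss1 levels overlapped in both tables, and the folds were 1.01 (95% interval 0.704 to 1.45) and 1.0 (0.607 to 1.66). A change of 1.82-fold without tetracycline would have reached the authors' threshold for Acss1.

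Acss2 lies at chr2:155517948-155585724 on the plus strand. It had 2706 and 3269 normalized counts fasted and 3289 and 2771 fed without tetracycline. With tetracycline it had 3763 and 2908 fasted and 2599 and 3256 fed. Acss2 too overlapped in both tables, with log2 changes of -0.02 (SE 0.27) and 0.19 (SE 0.39) and adjusted p-values of 0.993 and 1.0.

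Acss3, at chr10:106933517-107123668 on the minus strand, had far fewer counts, with 53.20 and 79.58 normalized counts fasted and 39.70 and 39.18 fed without tetracycline. Both fasted libraries lay above both fed ones, but the log2 change of 0.75 (SE 0.56) had an adjusted p of 0.732. With tetracycline Acss3 had 92.16 and 53.66 fasted against 40.16 and 72.26 fed, which overlapped, and the log2 change was 0.39 (SE 0.67, adjusted p 1.0). Acss3 shares 2436 exon bases with Ppfia2. Since the kit keeps no strand, reads from such shared stretches cannot be told apart; the shared bases were 927 for Acss2 (with Acss2os, Ggt7 and Gss), 241 for Pcca (with Ggact) and 113 for Acss1 (with E130215H24Rik).

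Pcca and Pccb encode the alpha and beta subunits of propionyl-CoA carboxylase, the mitochondrial enzyme that turns propionyl-CoA into methylmalonyl-CoA. Pcca, at chr14:122534324-122891100 on the plus strand, had 1353 and 2025 normalized counts fasted and 1805 and 1530 fed without tetracycline. With tetracycline it had 2133 and 1866 fasted and 1387 and 2061 fed. The Pcca libraries overlapped both times, with log2 changes of 0.02 (SE 0.30) and 0.21 (SE 0.41).

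Pccb, at chr9:100982032-101034898 on the minus strand, had 8059 and 9573 normalized counts fasted and 9931 and 12500 fed without tetracycline. With tetracycline it had 9821 and 11063 fasted and 9550 and 11225 fed. The fasted libraries lay below the fed ones only in the first table, where the log2 change was -0.35 (SE 0.27, adjusted p 0.742). With tetracycline the Pccb change was 0.01 (SE 0.36), and the difference between the changes was 0.35 (SE 0.45, adjusted p 1.0). Over Acss1, Acss2, Pcca and Pccb the 95% intervals of the fold lay within 0.547 to 1.53 without and 0.607 to 2.03 with tetracycline. These bounds are the widest over the 4 genes and rest on the spread between libraries, so they may not bound changes between animals. For a call, a fold of 1.82 to 1.98 without and 2.48 to 2.80 with tetracycline, or its inverse, would have been needed.

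**Figure D3:**
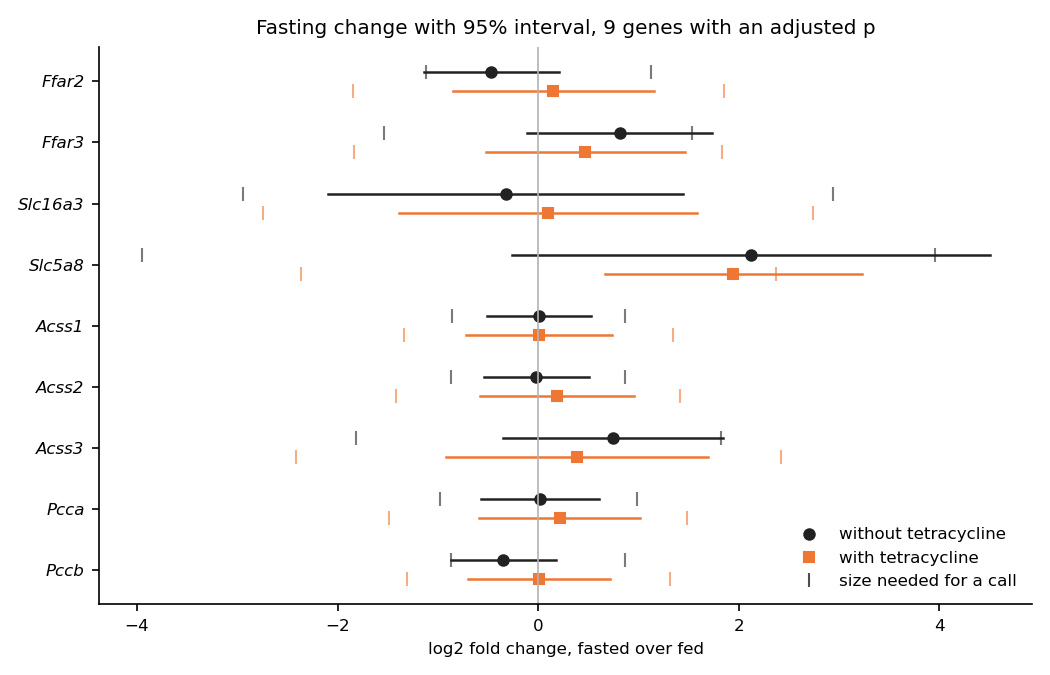
Deposited log2 fold change on fasting (points) with its 95% interval (lines) for the 9 members with an adjusted p, without (black) and with (orange) tetracycline; vertical ticks mark the size needed for a call. Every point lies inside its ticks, and the Slc5a8 interval with tetracycline is the only one of the 18 that does not cross 0.

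In all, the fasted and fed libraries did not overlap for 4 of the 10 members without tetracycline (Ffar3 and Acss3 higher, Ffar2 and Pccb lower in the fasted libraries). The share was 46.3% of 12571 genes with recovered counts. With tetracycline this held for 2 of the 10, Ffar3 and Slc5a8, both higher in the fasted libraries, beside 31.8% of 12575 genes. These counts were near the background and single out no member.

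Levels were also set side by side with and without tetracycline, which was not tested because the tables were scaled separately. The means were compared on the log2 scale with a pseudocount of 1 and centred on the median of 13194 genes. Slc5a8 stood apart in fed mice. Its fed mean was 1227 without and 367 with tetracycline, a centred log2 difference of -1.76, and 0.0682% of genes had a lower value. The fed libraries, 1377 and 1077 against 351.2 and 382.9, did not overlap, and leaving out each of the 4 in turn gave -1.92 to -1.57. Its fasted mean was 5332 without and 1414 with tetracycline, a centred log2 difference of -1.98, with 0.205% of genes lower, but there the libraries overlapped and the value rested on 1 of them. Without fasted library 1 of the table without tetracycline, at 9372, the Slc5a8 difference was 0.06, and leaving out the other fasted libraries in turn gave -3.29 to -1.31. Of the other 8 members with a mean above the floor, the centred differences ran from -0.41 for Slc16a3 to 0.48 for Acss3 in fed mice and from -0.43 for Ffar3 to 0.20 for Ffar2 in fasted mice. Of the 4 distal markers with recovered fed counts in both tables, all but Fabp6 had every fed library lower with than without tetracycline. Slc51b had 2492 and 1770 with against 3554 and 5105 without, Cubn 3348 and 3025 against 5692 and 5638, and Slc10a2 747.3 and 391.5 against 4455 and 831.9. Fabp6 overlapped, with 14356 and 9523 against 13402 and 18584. Their part in the Slc5a8 levels was not tested.

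**Figure D4:**
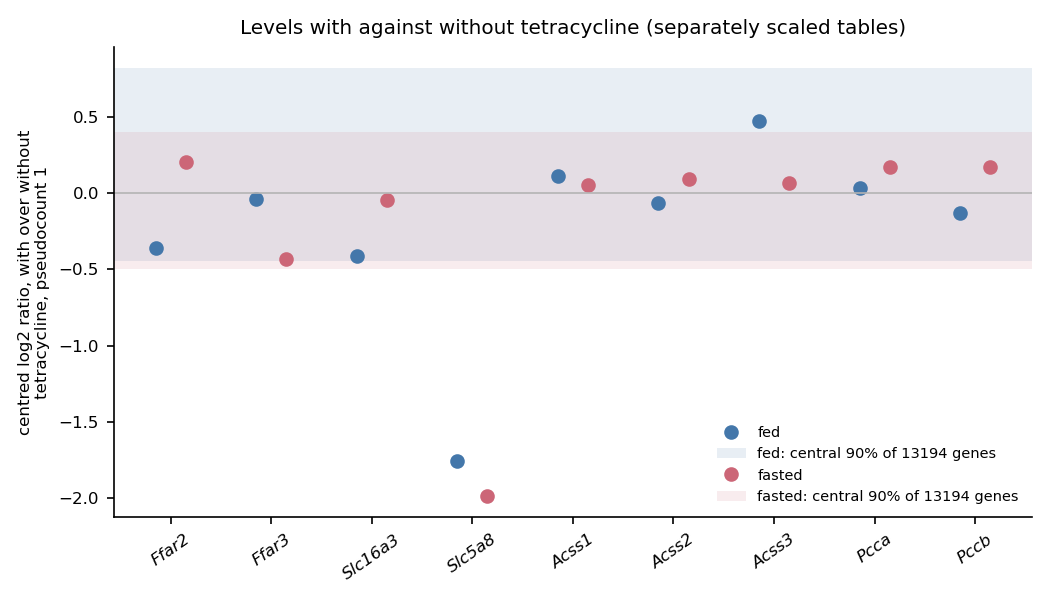
Centred log2 ratio of the mean level with over without tetracycline (vertical axis) for 9 members in fed (blue) and fasted (red) mice; shaded bands hold the central 90% of 13194 genes. Slc5a8 lies at -1.76 (fed) and -1.98 (fasted), below both bands, but its fasted point rests on 1 library and is 0.06 without it. Every other fasted point and fed point is inside its band.

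Levels between genes were compared per kilobase of annotated exon. The order without tetracycline was Pccb (3615 normalized counts per kb), Acss1 (1072), Slc5a8 (615), Pcca (322), Acss2 (296), Slc16a3 (277), Ffar2 (72.5), Ffar3 (69.2), Acss3 (7.35) and Hcar2 (0.366). Pcca, Acss2 and Slc16a3 were close, and so were Ffar2 and Ffar3. Without fasted library 1 the Slc5a8 mean was 234 per kb, below Pcca, Acss2 and Slc16a3. With tetracycline Slc5a8 stood at 167, below Pcca (357), Acss2 (308) and Slc16a3 (242). The beta subunit Pccb was 11.2 times the alpha subunit Pcca per kb without and 10.5 times with tetracycline. Exon length is the union over annotated transcripts, so a gene with long rare isoforms, such as Acss2, is understated.

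Around the members, 90 symbols of the wider pathway were read from a list of receptors, carriers, coenzyme A enzymes and branched-chain amino acid enzymes. Without tetracycline 81 were listed and 80 tested, of which 5 were called higher and 0 lower (6.25%, beside 2.27% of all tested genes in either direction). With tetracycline 82 were listed and 78 tested, of which 1 was called higher and 0 lower (1.28%, beside 0.600%). The list's median log2 change was -0.02 without and 0.20 with tetracycline. It was drawn up with earlier results of these data known.

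The 5 genes called higher without tetracycline handle fatty acids or lactate. Acacb, the mitochondria-bound acetyl-CoA carboxylase, had 2175 and 2972 normalized counts fasted against 226.3 and 249.2 fed. Its log2 change was 3.44 (SE 0.29, adjusted p 2.99e-28). It rose with tetracycline as well, from 203.2 and 413.1 fed to 2561 and 1098 fasted, by 2.57 (SE 0.59, adjusted p 0.00400). Hadha and Hadhb, the subunits of the mitochondrial trifunctional protein of long-chain beta-oxidation, rose by 0.93 (SE 0.25) and 1.17 (SE 0.27). Slc25a20, the carnitine-acylcarnitine carrier, rose by 1.07 (SE 0.27). With tetracycline the values were 0.97 for Hadha, 1.29 for Hadhb and 1.17 for Slc25a20, with adjusted p-values of 0.397, 0.0605 and 0.128.

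Slc5a12, the closest relative of Slc5a8 and known as a lactate carrier (SMCT2), was the only gene called among 13 tested monocarboxylate carriers and their partners beyond the members. At an unadjusted p under 0.05 there were 5 of the 13 without tetracycline. Of these, 4 were higher in the fasted libraries (Slc5a12, Slc16a10, Slc16a6 and Slc16a13) and Slc16a12 was lower. With tetracycline there was 1, Slc5a12. The log2 change of Slc5a12 without tetracycline was 2.20 (SE 0.47, adjusted p 0.000501). Slc5a12 had 7609 and 1969 normalized counts fasted against 1045 and 1040 fed, so both fasted libraries lay above the fed ones, and the same fasted library was high as for Slc5a8. The log2 ratio of means was 0.92 without that library. With tetracycline Slc5a12 had 686.2 and 13054 fasted against 1589 and 949.1 fed, with a log2 change of 2.44 (SE 0.97, adjusted p 0.583). Without fasted library 2 the log2 ratio of means was -0.89. Slc16a1, the widely expressed carrier MCT1, had 8434 and 8183 fasted against 8810 and 7207 fed, with a log2 change of 0.05 (SE 0.26, adjusted p 0.985), and 0.45 (SE 0.44, adjusted p 1.0) with tetracycline.

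Of 20 tested genes around the carboxylase, which cover late valine breakdown, biotin and cobalamin handling and the steps from methylmalonyl-CoA through succinyl-CoA, 0 were called in either table. At an unadjusted p under 0.05 there was 1 in each, Aldh6a1, the valine-pathway enzyme that forms propionyl-CoA ahead of the carboxylase, with log2 values of 0.80 (SE 0.26, adjusted p 0.0698) and 1.01 (SE 0.46, adjusted p 0.809). Mmut, methylmalonyl-CoA mutase, had log2 changes of 0.16 (SE 0.26) and 0.12 (SE 0.45). A further list of 17 tested genes held other enzymes of branched-chain amino acid breakdown together with the carboxylases Pcx and Acaca. Of these 0 were called in either table, and 0 had an unadjusted p under 0.05. The other receptors of the family, Ffar1 and Ffar4 for long-chain fatty acids, had log2 changes of 0.08 (SE 0.46) and -0.07 (SE 0.39) without and -0.37 (SE 0.57) and 0.82 (SE 0.48) with tetracycline, with adjusted p-values of 0.987, 0.986, 1.0 and 1.0.

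These libraries did register fasting elsewhere. Of a fasting reference list of 8 genes, 5 were called higher without and 4 with tetracycline, and 0 lower. Pdk4 and Angptl4 were among those called both times. Pdk4, which restrains pyruvate oxidation, rose by 2.27 (SE 0.38, adjusted p 7.82e-07) without and 2.90 (SE 0.62, adjusted p 0.00111) with tetracycline on the log2 scale. Angptl4, a secreted inhibitor of lipoprotein lipase, rose by 2.16 (SE 0.36, adjusted p 7.82e-07) and 3.64 (SE 0.64, adjusted p 1.38e-05). Their direction, like every direction here, rests on reading the deposited fold change as fasted over fed. Libraries of the tetracycline table were less even, with size factors that spanned a 1.75-fold range against 1.17-fold without, and the median standard error over all tested genes was 0.49 against 0.34.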

How the data were processed

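RNA was sequenced from small-intestinal crypts with a kit that keeps no strand, per the labels' protocols. Salmon, DESeq2 and the mouse build mm10 are named per the submitters' processing notes, with no version or role. The deposited material was 2 tables of the authors' own comparisons. Per the file headers, the authors' mean is a signal (counts divided by a size factor, averaged over libraries), the authors' log2 fold change comes with a standard error on that scale, the authors' statistic is a score (fold change over standard error), and the authors' p-values come raw and Benjamini-Hochberg adjusted. The direction, fasted over fed, was read from the order of words in the tables' names and is stated nowhere else. A call is the authors' adjusted p under 0.05.

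Each deposited mean is built from whole counts, each weighted by a step that is fixed for its library. These steps gave 4 libraries per table, 2 on each side. The counts behind each member were recovered as the 1 set that gave the deposited mean and also the deposited fold change within 5e-05, so that the fold change is not an independent check of them; Hcar2 without tetracycline, with 3 counts, was fixed by its mean and differed by 0.0046. Recovery gave 1 set for 99.9% of 12584 genes with means from 20 to 5000 in each table, and for 300 of 300 simulated count sets. Which labelled sample a recovered library belongs to is not known, so the libraries are printed singly, with no SD and no test of their own. Within a side, library 1 has the larger size factor.

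Intervals of 95% are normal, from the deposited standard errors. The difference of the fasting changes was a Wald test (two-sided normal p), Benjamini-Hochberg adjusted over 17571 genes with an adjusted p in both tables. In simulated data it called 197 of 200 genes changed by 4 on the log2 scale. Those genes were kept from low means, and noise was drawn at the deposited standard errors. The tested members' differences were at most 0.62 in size, so the simulation does not show whether differences of that size would be called. Levels with against without tetracycline used a pseudocount of 1, centred on genes with a mean of at least 50. Coordinates came from GENCODE M21 on GRCm38, which 99.1% of the identifiers matched without version, and promoter windows from RefSeq on GRCm38.p6. The design had allowed for counts per sample; as the tables hold comparisons, the authors' test was used. Named genes are all 10 members and, by the rule, called genes of the lists. Not every called marker is named, 1 called gene is not reported here, and uncalled genes named beside them (Slc16a1, Mmut, Aldh6a1, Ffar1, Ffar4, Chga, Gcg, S100a8, S100a9, Epcam, Krt8, Car1, Pcx, Acaca and the distal markers other than Fabp6) were chosen after their values were seen. The members and lists were chosen with earlier results of these data known. Alternatives were other pseudocounts, centring, thresholds, filters on low means, adjustment over all rows and leaving out each library. Scripts ran in Python 3.11.15 with numpy 2.4.6, pandas 2.3.3, scipy 1.17.1 and numba 0.67.0.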

Additional observations from a re-analysis of the deposited data

How the results depend on the processing

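No member was called, and none differed between the fasting changes, under any threshold, centring or adjustment tried. The adjusted p of the members' differences ranged from 0.989 to 1.0 over the 27 alternatives that gave one. The count of wider pathway genes called with tetracycline moved from 1 to 2 at an adjusted p under 0.1, and the other 18 counts stayed within 1.5 times. Of the alternatives for the members' fasting changes, 129 moved the value by less than its deposited standard error and 8 by more, all 8 on leaving out 1 library: to 0.28 for Ffar3, -0.30 for Pcca, -1.35, 0.88 and -1.78 for Slc16a3, and 0.07, 2.62 and 0.64 for Slc5a8. No paired analysis was possible because each labelled group has 1 sample and the recovered libraries carry no replicate number. With 2 libraries on a side, only large changes could pass, as the sizes needed for a call show. Leaving out 1 library gave no fold where a side of Hcar2 was then at 0.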

Other observations

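The genes whose library pattern was nearest to that of Slc5a8 were picked after its values had been seen, by the Euclidean distance between log2 ratios of library 1 to library 2 in the 4 pairs, among 11312 genes with a symbol. Stom (distance 0.855), Ceacam20 (0.917) and Lhfpl2 (1.01) came first. Stom had log2 ratios of 2.37 in the fasted pair without and -1.80 in the fasted pair with tetracycline, beside 2.86 and -1.98 for Slc5a8. In the fed pairs Stom had -0.32 and -0.02, against 0.35 and -0.12 for Slc5a8. Over the 8 libraries, which share size factors within a table, the log2 levels of Slc5a8 and Slc16a3 correlated with r = 0.43 (Pearson) and rho = 0.33 (Spearman), given as a description.

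Of the colon surface markers, Best2, a channel of colonic goblet cells, was called higher in fasted mice with tetracycline, with a log2 change of 7.04 (SE 1.68, adjusted p 0.00802) at a deposited mean of 29.8. Counts per library were not recovered for Best2 with tetracycline, so whether 1 library carried that change is not known. Without tetracycline Best2 had a log2 value of 3.96 (SE 1.62, adjusted p 0.25), with normalized counts of 13.76 and 17.21 fasted and 1.985 and 0 fed. Car1, a carbonic anhydrase of colon epithelium, was listed only in the tetracycline table, with a mean of 40.1 and an adjusted p of 1.0. Its log2 change was 4.58 (SE 4.60), and its counts per library were not recovered either. Slc26a3 was called in neither table, with log2 changes of 0.61 (SE 0.25, adjusted p 0.265) without and 0.83 (SE 0.52) with tetracycline. Aqp8, a water channel, was called lower on fasting in both tables, with log2 changes of -3.76 (SE 0.47) without and -2.77 (SE 0.64) with tetracycline.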
